A study of Mus musculus with 6 samples.

Results

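Autophagy machinery genes encode the proteins that build the autophagosome, a double membrane that encloses cytoplasm and delivers it to the lysosome. The 39 genes described here were chosen as a fixed list of symbols, each found as 1 row of the expression table, which lists 52636 genes. They fall into 4 steps, with 5 genes of initiation, 11 of nucleation, 16 of conjugation and 7 receptors. All 39 had a mean of at least 1 TPM, a level per transcript length scaled to the same total in each library, over the libraries, as did 9775 genes in all.

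In initiation, the ULK1 kinase complex responds to nutrient and stress signals, and mTORC1 holds it back by phosphorylating ULK1 and ATG13. In nucleation, the class III PI3-kinase complexes around VPS34 and Beclin 1 make the lipid PI3P, which WIPI proteins bind, while ATG9A and the ATG2 proteins supply membrane. In conjugation, ubiquitin-like enzymes attach the ATG8 proteins (the LC3 and GABARAP families) to lipid, and receptors then tie cargo to them. Autophagy is known to take part in the maturation of neutrophils in the bone marrow. LRP5 is known as a co-receptor for Wnt ligands, but the study reported that its loss barely changed the Wnt response of β-catenin in neutrophils. It described LRP5 as a transporter of unesterified polyunsaturated fatty acids, some of which needed LRP5 to inhibit mTORC1 in these cells. The values here are RNA levels, not phosphorylation or the flux of autophagy.

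RNA was taken from primary bone marrow neutrophils of C57BL/6N mice aged 10 weeks, 3 libraries labelled WT and 3 labelled KO, with genotype LRP5f/f/Lyz2Cre+. Floxed Lrp5 alleles and a Cre recombinase in Lyz2, which is active in myeloid cells and thus not in neutrophils alone, make up the KO genotype. Whether WT mice carried either allele, and whether any library pooled mice, is not given in the sources used here, so the p-values measure the spread between these libraries. The labels name a Percoll gradient and an mRNA kit, whereas the methods name sorting of CD11b+ Ly6G+ cells and a total RNA kit.

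Reads per library ranged from 249841492 to 340580330. Lrp5 itself was 1.12, 1.31 and 1.42 TPM in WT replicates 1 to 3 and 1.68, 1.77 and 2.07 TPM in the libraries labelled KO, so the targeted transcript was not lower under that label (limma adjusted p = 0.136), and every direction below rests on the labels. Lyz2, the gene that carries Cre, was 24797 to 26791 TPM in WT and fell to 13360 to 14027 TPM in the libraries labelled KO (log2 fold change −0.91, limma adjusted p = 0.00351). WT replicate 3 stood apart from the other WT libraries in its share of ribosomal RNA reads, at 3.30% against 1.2% and 1.3%, while the libraries labelled KO had 2.69% to 2.98%. Reads in introns made up 7.78% to 9.0% in WT and 10.6% to 11.2% in the libraries labelled KO. These ranges did not overlap, and a two-sided exact permutation test gave p = 0.1, which is as low as 3 libraries against 3 can reach. Values are therefore given for all 6 libraries and, where WT replicate 3 moves them, without it. The 12 neutrophil markers, of which Itgam is listed under 2 gene identifiers that were both counted, summed to 398598 to 447480 TPM per library. Sums did not overlap between the groups for 3 lists of other cells. The 6 T and NK cell markers summed to 11.2 to 13.1 TPM in WT and 15.4 to 17.0 TPM in the libraries labelled KO. That sum was mostly Cd3d, with Cd3e at 0.18 TPM or less. For 6 eosinophil and basophil markers the sums were 9.85 to 12.4 and 13.1 to 14.2 TPM. In that list Prg2 was 0.85 to 1.16 TPM in WT and 2.33 to 3.13 TPM in the libraries labelled KO. Epx was 0.14 TPM or less, and Siglecf overlapped, at 7.31 to 8.77 and 8.04 to 8.69 TPM. The 5 megakaryocyte and platelet markers summed to 3.74 to 5.38 and 5.75 to 6.65 TPM. Sums of immature and mature neutrophil, erythroid, B cell, monocyte and macrophage, and stem and progenitor markers overlapped, though single markers in a list could still differ. Among monocyte and macrophage markers, Adgre1, C1qa and C1qb were higher in the libraries labelled KO without overlap, and Cx3cr1 was lower. Adgre1 was 10.3 to 12.6 TPM in WT and 14.4 to 15.6 TPM in the libraries labelled KO. The part of any of these cells in the members' values was not tested.

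Among the windows around RefSeq starts of these genes, those of Atg3, Atg7 and Atg14 held the sequence TCACGTG. It is the core of the element through which TFEB and TFE3, transcription factors of lysosome and autophagy genes, are known to act. These windows are printed beside that of Ulk1, the member with the largest log2 fold change on log2(TPM + 1), in which these letters were not found. The windows run from 250 bases before to 50 bases after the RefSeq start on GRCm38.p6, 5′ to 3′ on the gene's strand. A gene may have other starts than the one used. The Atg7 window lies inside the gene and not at its 5′ end. In NCBIM37 Atg7 begins at 114593149 and Gabarapl1, on the same chromosome, at 129483218. The Gabarapl1 window runs from 129532942 to 129533241, so the shift between builds is smaller than the offset of the Atg7 window. Capitals mark CACGTG, with the T before it or the A after it where present. Ulk1 is at chr5:110810032-110810331, minus strand, Atg3 at chr16:45158579-45158878, plus strand, Atg7 at chr6:114670846-114671145, plus strand, and Atg14 at chr14:47568385-47568684, minus strand.
Ulk1: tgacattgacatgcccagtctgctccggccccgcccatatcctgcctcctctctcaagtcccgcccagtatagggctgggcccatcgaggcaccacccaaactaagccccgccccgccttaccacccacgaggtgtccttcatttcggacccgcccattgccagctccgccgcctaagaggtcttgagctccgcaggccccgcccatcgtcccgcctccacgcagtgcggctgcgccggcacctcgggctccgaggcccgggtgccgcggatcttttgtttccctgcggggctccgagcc
Atg3: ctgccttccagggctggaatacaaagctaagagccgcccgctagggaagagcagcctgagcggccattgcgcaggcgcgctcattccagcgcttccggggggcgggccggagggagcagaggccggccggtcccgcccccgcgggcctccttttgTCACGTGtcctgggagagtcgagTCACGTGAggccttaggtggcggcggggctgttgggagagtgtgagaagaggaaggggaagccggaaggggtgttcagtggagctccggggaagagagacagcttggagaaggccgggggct
Atg7: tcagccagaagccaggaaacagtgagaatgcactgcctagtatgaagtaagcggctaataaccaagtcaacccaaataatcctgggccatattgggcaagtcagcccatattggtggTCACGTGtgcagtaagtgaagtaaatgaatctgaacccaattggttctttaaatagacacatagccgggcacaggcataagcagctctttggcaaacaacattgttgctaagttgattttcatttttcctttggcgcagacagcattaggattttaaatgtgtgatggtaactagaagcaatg
Atg14: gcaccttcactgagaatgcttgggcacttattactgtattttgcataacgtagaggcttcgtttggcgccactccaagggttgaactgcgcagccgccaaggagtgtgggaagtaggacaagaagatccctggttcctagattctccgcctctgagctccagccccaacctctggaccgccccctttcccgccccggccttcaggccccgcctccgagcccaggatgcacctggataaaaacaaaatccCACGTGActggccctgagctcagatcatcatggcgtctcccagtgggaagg
The first of 2 matches in Atg3 begins, at its CACGTG, 94 bases before the RefSeq start. That in Atg7 begins 132 bases before the start used, inside the gene, and that in Atg14 1 base before its start.

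Of the 39 members, 32 matched a promoter entry, with 36 windows among them. On either strand TCACGTG was in 3 of the 36 windows, that of Atg7 inside its gene among them, and in 3.77% of all 32851 windows. The shorter CACGTG, which TCACGTG contains, was in 5 of 36 and in 7.15% of all. The genes with CACGTG also included Atg5 and Bnip3. A match describes the letters in this window and not a bound site. The genes with no entry were Rb1cc1, Becn1, Pik3c3, Atg12, Atg16l1, Map1lc3a and Bnip3l.

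By level, the ATG8 protein gene Gabarap led all members, at 728 ± 23.5 TPM (SD, n = 3) in WT and 673 ± 24.9 TPM (SD, n = 3) in the libraries labelled KO. It alone made up 26.3% to 28.6% of the summed TPM of the 39 members. Next by mean level stood Map1lc3b, which encodes LC3B, Atg3, Sqstm1 and Tax1bp1, each between 147 and 297 TPM in every library. At the other end, Atg10 was 1.03 to 2.12 TPM and Atg14 2.06 to 2.30 TPM. The sum over all members was 2610 to 2649 TPM in WT and 2458 to 2581 TPM in the libraries labelled KO, without overlap. Most of that gap lay in the conjugation genes, which summed to 1640 to 1663 TPM in WT and 1503 to 1579 TPM in the libraries labelled KO, with Gabarap and Atg3 the largest contributors. In bulk samples, fewer cells that express a gene and less RNA per cell cannot be told apart.

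**Figure D1:**
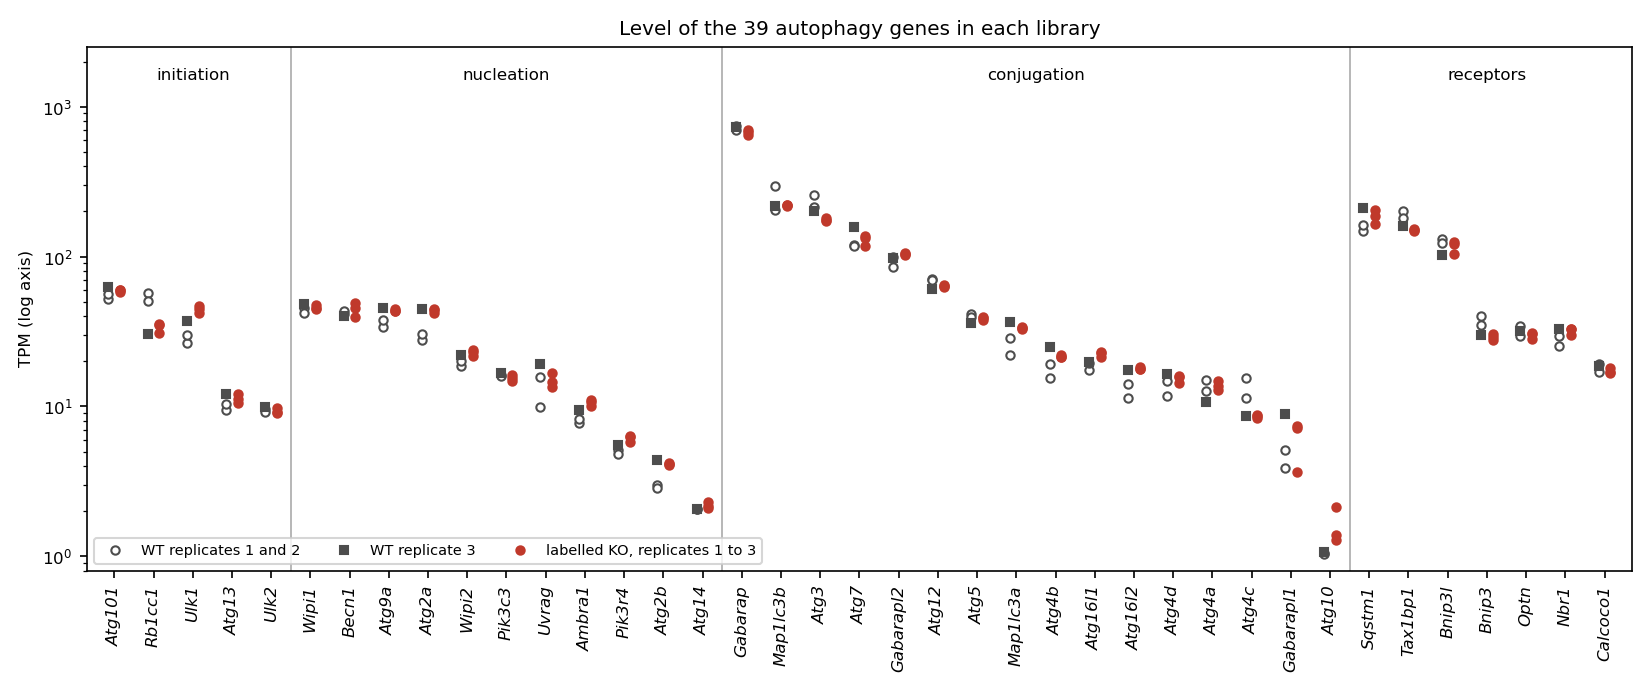
TPM of each of the 39 autophagy genes (log axis) in the 3 WT and 3 KO-labelled libraries, grouped by step and ordered by mean level, with open circles for WT replicates 1 and 2, squares for WT replicate 3 and filled circles for libraries labelled KO. Gabarap stands highest. For Atg2a the square lies among the filled circles, and for Rb1cc1 it lies just below the lowest of them.

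The groups were compared with limma on log2(TPM + 1), a scale that understates the change of low genes, with Benjamini-Hochberg adjustment over all 9775 genes tested. No member had an adjusted p under 0.05, where 0.532% of all genes tested did, 0.266% higher and 0.266% lower. At an unadjusted p under 0.05 there were 8 members, 6 higher and 2 lower in the libraries labelled KO, against 23.5% of all genes tested (14.4% higher and 9.12% lower). The groups did not overlap for 11 members (8 higher, 3 lower), or 28.2%, against 29.7% of all genes tested (17.4% higher and 12.3% lower), so the members were separated about as often as genes in general. The median log2 fold change over the members was 0.06 and over all genes tested 0.04, and 25 of the 39 were above 0, against 58.8% of all.

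**Figure D2:**
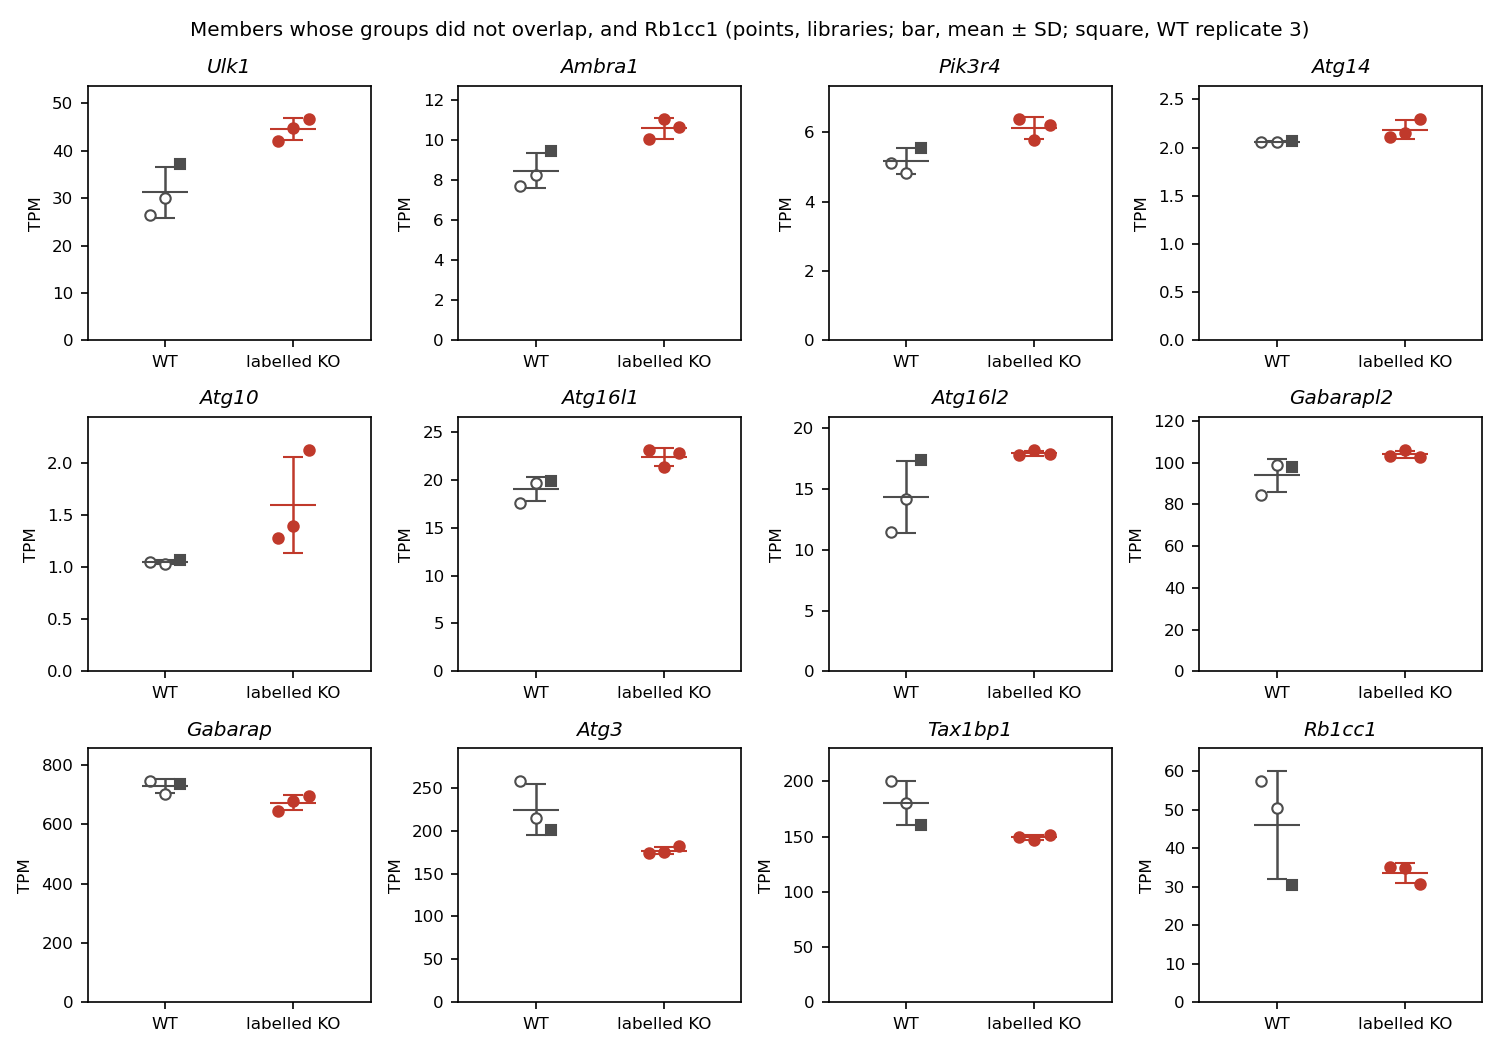
TPM per library for the 11 members whose groups did not overlap and for Rb1cc1, with points for libraries, horizontal bars for the mean and error bars for the SD (n = 3), and squares for WT replicate 3. Ulk1 was 26.4 to 37.1 TPM in WT and 42.0 to 46.6 TPM in libraries labelled KO, whereas WT replicate 3 of Rb1cc1 lies at the level of the libraries labelled KO.

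Among the initiation genes, Ulk1, the kinase that starts autophagy, had the largest log2 fold change of all members on log2(TPM + 1). It lies on the minus strand of chromosome 5 from 111213507 to 111239116 in NCBIM37 (mm9). Its level was 26.4, 30.0 and 37.1 TPM in WT replicates 1 to 3 and 42.0, 44.8 and 46.6 TPM in the libraries labelled KO. Each library labelled KO was above each WT library, and WT replicate 3 was the closest to them. The log2 fold change was 0.51 (standard error 0.12, limma adjusted p = 0.1001). Without WT replicate 3 it was 0.64 (limma adjusted p = 0.0115), and against WT replicate 3 alone 0.25 (limma adjusted p = 0.264). After removal of each library's trends with GC content and length, Ulk1 was the 1 member called, at 0.35 (limma adjusted p = 0.0259). That fit called 4.9% of all genes, 1.79% higher and 3.11% lower.

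The 5 initiation genes had a median log2 fold change of 0.06, which was −0.08 against WT replicate 3 alone and −0.0030 without WT replicate 1. No other gene of the ULK1 complex shared both the size and the direction of the difference in Ulk1. Rb1cc1, which encodes its scaffold FIP200, was 57.4, 50.5 and 30.5 TPM in WT and 35.3, 34.9 and 30.7 TPM in the libraries labelled KO. WT replicate 3 was the lowest of all 6, so its groups overlapped. Its log2 fold change was −0.40 (limma adjusted p = 0.297), and −0.67 without WT replicate 3 (limma adjusted p = 0.0123) but 0.13 against that library alone. Ulk2, the paralog of Ulk1, was 9.16 to 9.92 TPM in WT and 8.98 to 9.75 TPM in the libraries labelled KO, a log2 fold change of −0.03. Atg13 and Atg101, which encode the regulatory pair of the complex, had log2 fold changes of 0.08 and 0.06, with overlapping groups. Atg101 was the most abundant of the initiation genes, at 56.9 ± 5.21 TPM (SD, n = 3) in WT and 59.1 ± 0.71 TPM (SD, n = 3) in the libraries labelled KO, and the sign of its difference turned in 4 of 18 alternatives.

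Nucleation genes had the highest median of the 4 steps, at 0.17 on the log2 scale. Of the 11 genes, 10 were above 0, against 58.8% of all genes tested. The groups did not overlap for 3 of them, or 27.3%, against 29.7% of all genes tested. None was called in the fit of all 6 libraries. The median was 0.23 without WT replicate 3, 0.09 without WT replicate 1 and −0.03 against WT replicate 3 alone, where 5 of 11 were above 0. With median-ratio scaling it was 0.13 and 8 of 11 were above 0.

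Ambra1, which encodes a regulator of Beclin 1, was 7.72, 8.27 and 9.45 TPM in WT and 10.0, 11.05 and 10.7 TPM in the libraries labelled KO. The log2 fold change was 0.29 (standard error 0.091, limma adjusted p = 0.140), and 0.36 without WT replicate 3 (limma adjusted p = 0.0262). The ranges stood apart by less than 1 TPM.
Pik3r4, the gene of the VPS15 subunit that anchors VPS34, was 5.13, 4.83 and 5.56 TPM in WT and 6.38, 5.79 and 6.21 TPM in the libraries labelled KO, a log2 difference of 0.21 (limma adjusted p = 0.189). Atg14, which directs VPS34 to the forming autophagosome, was 2.06, 2.06 and 2.07 TPM against 2.11, 2.15 and 2.30 TPM. Although its groups did not overlap, the log2 fold change was 0.06 (limma adjusted p = 0.673), and quantile normalization turned it to −0.04. Pik3c3, the gene of VPS34 itself, and Becn1 had log2 fold changes of −0.06 and 0.09, and Uvrag, the subunit of the endosomal form of the complex, 0.03.

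For the genes of membrane supply, WT replicate 3 lay with the libraries labelled KO. Atg2a, which encodes a lipid transfer protein, was 27.6 and 30.2 TPM in WT replicates 1 and 2, 44.4 TPM in WT replicate 3 and 41.7, 44.0 and 45.0 TPM in the libraries labelled KO. Its log2 fold change was 0.37 over all libraries (limma adjusted p = 0.219), 0.58 without WT replicate 3 (limma adjusted p = 0.0113) and −0.03 against that library alone. Atg2b and Atg9a, the gene of the transmembrane scramblase, split the libraries in the same way, with log2 fold changes of 0.39 and 0.29 without WT replicate 3 (limma adjusted p = 0.0214 and 0.0398) and −0.07 and −0.06 against it alone. The PI3P-binding genes Wipi1 and Wipi2 had overlapping groups. Wipi1, the most abundant of the step, was 45.1 ± 2.98 TPM (SD, n = 3) in WT and 45.8 ± 1.54 TPM (SD, n = 3) in the libraries labelled KO, and the sign of its difference turned in 6 of 18 alternatives.

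Among the 16 conjugation genes, 10 were above 0 and 6 below, with a median of 0.07 on the log2 scale that was −0.0059 against WT replicate 3 alone. None was called in the fit of all 6 libraries. The groups did not overlap for 6 of the 16, or 37.5%, 4 higher and 2 lower in the libraries labelled KO. Of all genes tested, 29.7% did not overlap (17.4% higher and 12.3% lower), and 58.8% were above 0. Atg3, the E2-like enzyme that passes ATG8 proteins to lipid, lies on the plus strand of chromosome 16 from 45158898 to 45188651 in NCBIM37. It was 257, 215 and 200.3 TPM in WT and 173, 175 and 182 TPM in the libraries labelled KO. Every library labelled KO was below every WT library, and WT replicate 3 was the closest. The log2 fold change was −0.33 (standard error 0.097, limma adjusted p = 0.130), −0.41 without WT replicate 3 (limma adjusted p = 0.0263) and −0.18 against that library alone.

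Atg10, the E2-like enzyme of the ATG12 branch, was 1.05, 1.03 and 1.07 TPM in WT and 1.28, 1.40 and 2.12 TPM in the libraries labelled KO. The spread came mostly from KO replicate 3, without which the log2 fold change went from 0.33 (limma adjusted p = 0.184) to 0.19. In TPM, the mean of Atg10 over the libraries labelled KO was 52.3% above its WT mean, and that of Ulk1 42.6%. Atg7, the E1-like enzyme of both branches, had overlapping groups and a log2 fold change of −0.01. Atg5 and Atg12, which are joined to each other, had log2 fold changes of 0.01 and −0.07.
Atg16l1, whose product places the ATG12-ATG5 conjugate on the membrane, was 17.5, 19.6 and 19.9 TPM in WT and 23.1, 21.3 and 22.8 TPM in the libraries labelled KO, a log2 difference of 0.23 (limma adjusted p = 0.160). Its paralog Atg16l2 was 11.4, 14.2 and 17.4 TPM against 17.8, 18.2 and 17.9 TPM. The gap between the groups of Atg16l2 was thus narrow, and its log2 fold change of 0.32 (limma adjusted p = 0.206) was 0.46 without WT replicate 3 (limma adjusted p = 0.0268) and 0.04 against it alone.

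The 4 genes of ATG4 proteases, which trim ATG8 proteins and release them from lipid, had overlapping groups. Atg4c was 15.5, 11.3 and 8.68 TPM in WT and 8.38, 8.61 and 8.70 TPM in the libraries labelled KO, so WT replicate 3 matched the latter. Its log2 fold change was −0.39 (limma adjusted p = 0.230), −0.58 without WT replicate 3 (limma adjusted p = 0.0291) and −0.02 against it alone. Atg4a, Atg4b and Atg4d had log2 fold changes of 0.11, 0.14 and 0.10.

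Of the ATG8 proteins, Gabarap was 745, 701 and 736 TPM in WT and 646, 678 and 695 TPM in the libraries labelled KO. Its groups did not overlap, with a log2 difference of −0.11 (limma adjusted p = 0.299). Gabarapl2 was 84.6, 98.9 and 98.1 TPM in WT and 103, 106 and 103 TPM in the libraries labelled KO, a log2 difference of 0.15 (limma adjusted p = 0.290). These paralogs therefore stood on opposite sides of 0 without passing the test. Within the ATG8 total, Gabarap took 66.4% ± 4.07 (SD, n = 3) in WT and 64.9% ± 0.81 (SD, n = 3) in the libraries labelled KO, and Gabarapl2 8.55% ± 0.51 and 10.0% ± 0.29 (SD, n = 3 each). Map1lc3b was 206, 297 and 219 TPM in WT and 219 to 220.3 TPM in the libraries labelled KO, with WT replicate 2 above the rest. Map1lc3a was 21.99, 28.6 and 36.3 TPM in WT and 32.7 to 33.6 TPM in the libraries labelled KO. Gabarapl1 was the most variable member, at 3.86 to 8.83 TPM in WT and 3.66 to 7.41 TPM in the libraries labelled KO. How reads were divided between near-identical copies of these genes is not given in the sources used here.

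The receptors were the 1 step with a negative median, at −0.08 on the log2 scale, with 5 of 7 below 0. Of all genes tested, 58.8% were above 0. The sign of the median held in all 18 alternatives, from −0.13 without WT replicate 2 to −0.04 without WT replicate 1, with 4 to 6 of 7 below 0. These alternatives share the same libraries. Between libraries of a group, the step's median deviation had an SD of 0.084, as large as the difference itself. Tax1bp1, the gene of a ubiquitin-binding receptor, was 200.1, 180.5 and 161 TPM in WT and 149, 147 and 152 TPM in the libraries labelled KO. Its groups did not overlap, and the log2 fold change was −0.27 (standard error 0.087, limma adjusted p = 0.149), −0.35 without WT replicate 3 (limma adjusted p = 0.0209) and −0.11 against it alone.

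Sqstm1, which encodes the receptor p62 and was the most abundant of this step, was 149, 161 and 212 TPM in WT and 186, 165 and 204 TPM in the libraries labelled KO. WT replicate 3 was the highest of all 6, and the log2 fold change was 0.10 (limma adjusted p = 0.683) over all libraries and −0.20 against WT replicate 3 alone. Nbr1, a partner of p62, had a log2 fold change of 0.13, and Optn and Calcoco1, further receptors, −0.10 and −0.08.
Bnip3 and Bnip3l encode receptors on the outer membrane of mitochondria. Bnip3 was 40.0, 34.7 and 29.9 TPM in WT and 30.2, 29.0 and 27.7 TPM in the libraries labelled KO, with a log2 difference of −0.25 (limma adjusted p = 0.217) and −0.35 without WT replicate 3 (limma adjusted p = 0.0345). Bnip3l, which is also abundant in maturing red cells, was 131, 122 and 103 TPM in WT and 103, 126 and 121 TPM in the libraries labelled KO, a log2 fold change of −0.02. The erythroid markers summed to 48.8 to 57.9 TPM in WT and 43.3 to 55.0 TPM in the libraries labelled KO.

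Over the members as a whole, WT replicate 3 was nearer to the libraries labelled KO than to the other WT libraries. Its median absolute difference on log2(TPM + 1) was 0.12, 0.12 and 0.084 from KO replicates 1 to 3, but 0.31 and 0.19 from WT replicates 1 and 2. Over all genes tested the same values were 0.14, 0.13 and 0.12 from KO replicates 1 to 3 and 0.21 and 0.15 from WT replicates 1 and 2. For 23 of 39 members, WT replicate 3 and all libraries labelled KO lay on the same side of both other WT libraries, which was also true of 45.1% of all genes tested.

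Without WT replicate 3, limma called 11 of 39 members, 6 higher and 5 lower in the libraries labelled KO, where it called 19.6% of all genes tested (12.1% higher and 7.57% lower). The 6 were Ulk1, Ambra1, Atg2a, Atg2b, Atg9a and Atg16l2, and the 5 were Rb1cc1, Atg3, Atg4c, Tax1bp1 and Bnip3. Of these, Rb1cc1, Atg2a, Atg2b, Atg9a, Atg4c and Bnip3 are described because of this fit, after their values had been seen. Leaving out any other library called no member. Against WT replicate 3 alone the members' median was −0.05, with 16 of 39 above 0.

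**Figure D3:**
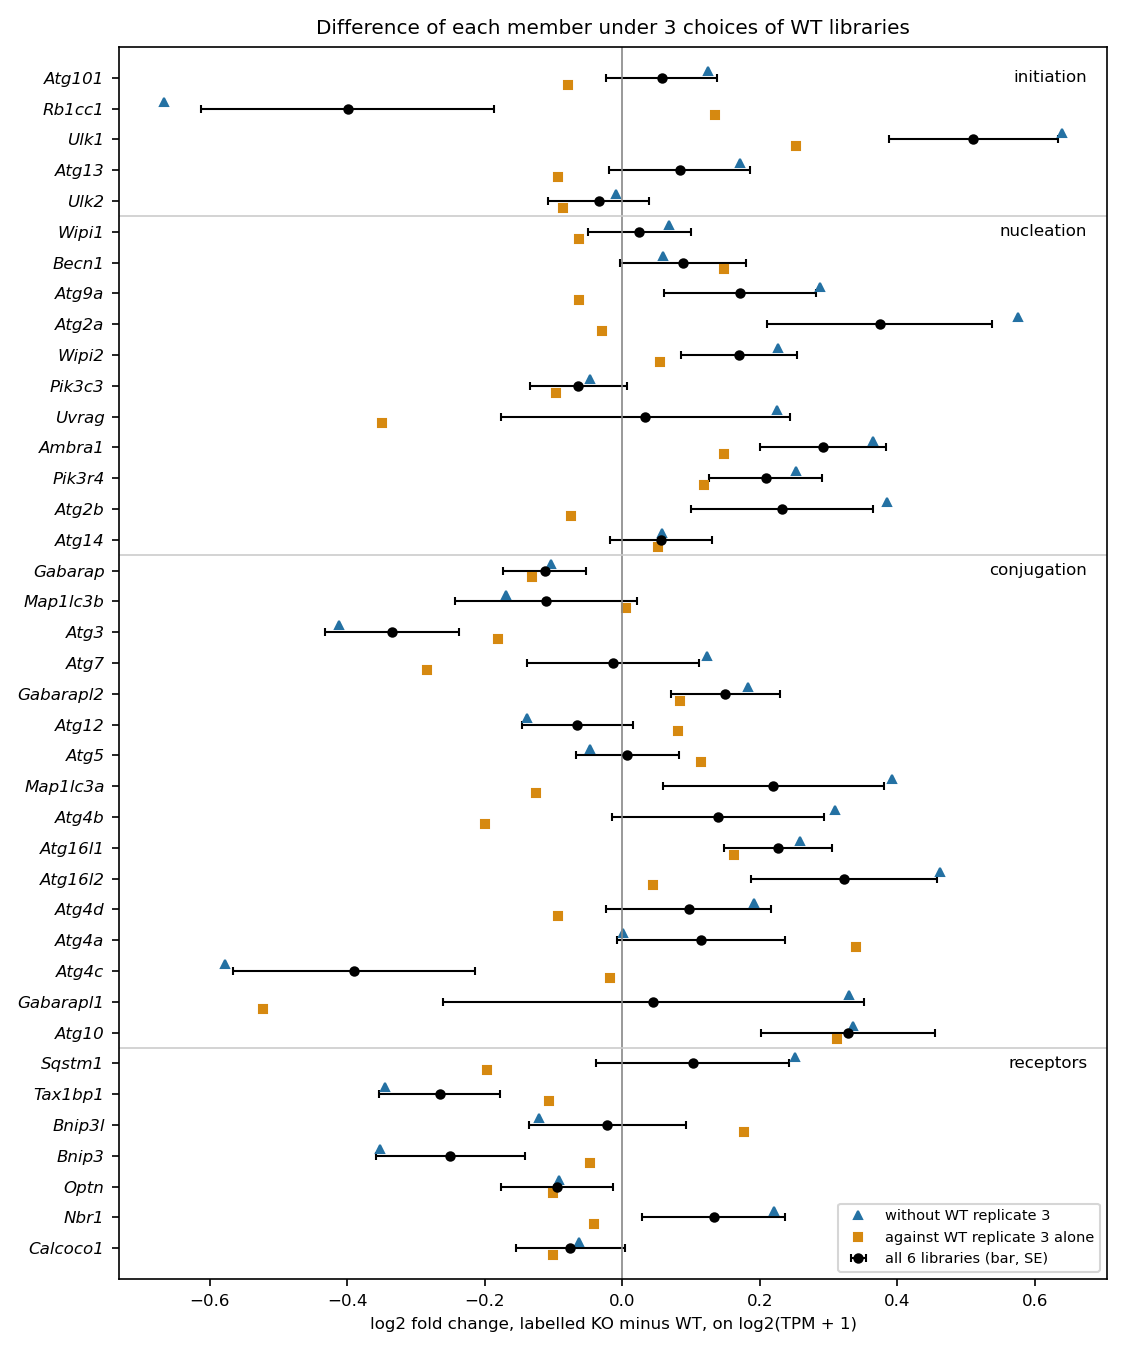
Log2 fold change of each member (libraries labelled KO minus WT, on log2(TPM + 1)) over all 6 libraries (circles, with bars for the standard error), without WT replicate 3 (triangles) and against WT replicate 3 alone (squares). Rb1cc1 lies at −0.67 without that library and 0.13 against it alone, while Ulk1 stays above 0 under each choice, at 0.64, 0.51 and 0.25.

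The members' differences moved with the base composition of their transcripts. GC content of the longest coding transcript ran from 39.1% in Rb1cc1 to 63.1% in Map1lc3a, and its Spearman correlation with the log2 fold change was 0.51 across the 39 members, 0.66 without WT replicate 3 and −0.31 against WT replicate 3 alone. Across 8769 genes the corresponding correlation over all libraries was 0.49, and −0.011 against WT replicate 3 alone. By library, the members' deviation from the mean of all 6 was negatively correlated with GC content for WT replicate 1 (Spearman correlation −0.72) and WT replicate 2 (−0.61). The sign was positive for WT replicate 3 (0.71) and for every library labelled KO (0.43 to 0.58). All of these share the same libraries, and genes are not independent replicates.
With GC and length trends removed, the median over the members was 0.02, that of nucleation 0.07 and that of receptors −0.10, where all genes stood at −0.00011. Rb1cc1 was then −0.25 and Atg2a 0.17, against −0.40 and 0.37 before. In the fit with ribosomal RNA share as a covariate, Rb1cc1 was −0.03 (limma adjusted p = 0.878) and Atg2a 0.10 (limma adjusted p = 0.461). The part of base composition, ribosomal RNA share or intronic reads in any difference was not tested beyond these values.

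**Figure D4:**
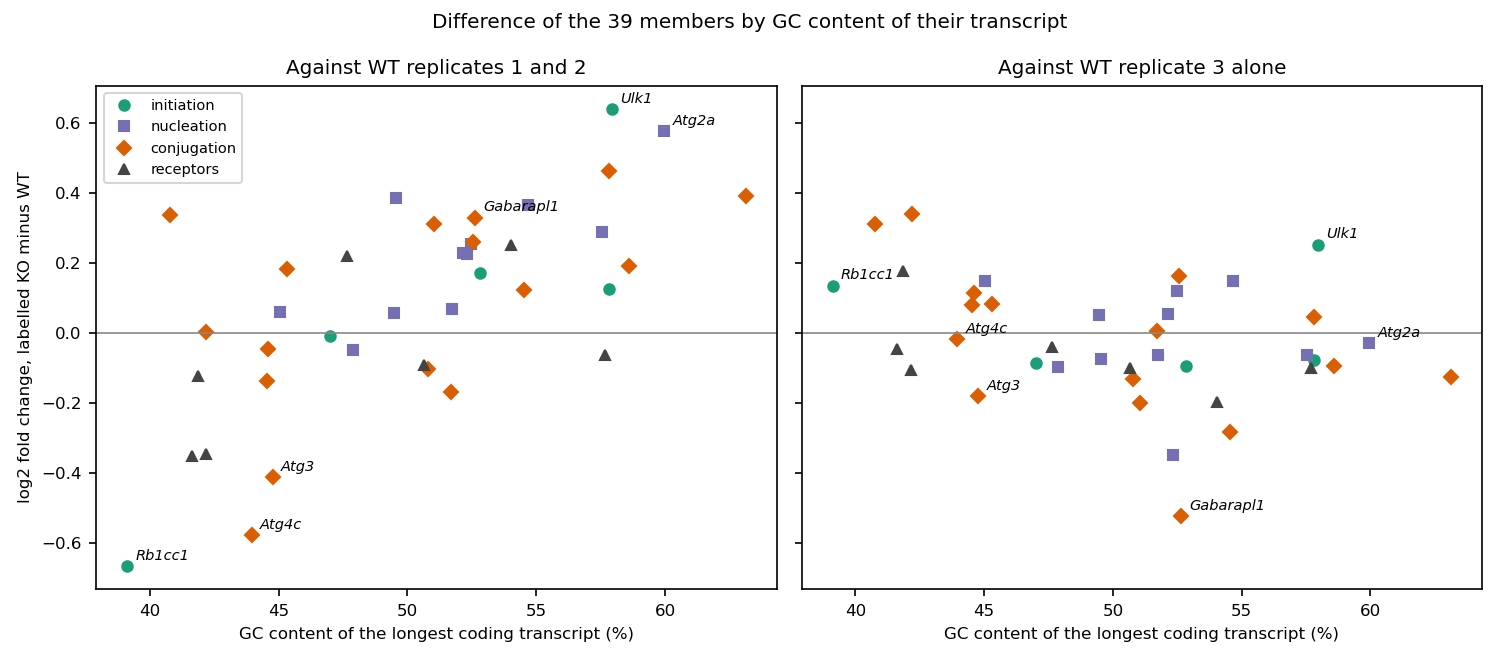
Log2 fold change of the 39 members (libraries labelled KO minus WT) against the GC content in % of their longest coding transcript, compared with WT replicates 1 and 2 (left) and with WT replicate 3 alone (right), with 1 symbol per step. Low-GC genes such as Rb1cc1 lie below 0 and high-GC genes such as Ulk1 and Atg2a above it on the left, with a Spearman correlation of 0.66, which is −0.31 on the right.

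Of 60 other genes of the pathway, 49 passed the filter on low values, with a median log2 fold change of 0.06. Of these, 32 were above 0, where 58.8% of all genes tested were. Only Phb2 was called among the 49, where 0.532% of all genes tested were called. Without WT replicate 3 it was 8 of 49, 5 higher and 3 lower in the libraries labelled KO, where 19.6% of all genes tested were called. Phb2 encodes prohibitin 2, an inner mitochondrial membrane protein that is known for other roles as well as for a part in the removal of mitochondria, and was 32.8, 35.1 and 34.6 TPM in WT and 54.4, 52.0 and 48.5 TPM in the libraries labelled KO. It rose in the libraries labelled KO, with a log2 fold change of 0.58 ± 0.073 (SE, limma adjusted p = 0.0357), and the difference was 0.56 against WT replicate 3 alone and 0.44 with GC and length trends removed. Its call was kept in 9 of 18 alternatives, with adjusted p from 0.0114 to 0.178 in limma, and it was lost whenever a library other than WT replicate 3 was left out.

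The next smallest p belonged to Tecpr1 and Retreg1. Tecpr1, linked to the fusion of autophagosomes with lysosomes, was 4.86, 5.21 and 6.25 TPM in WT and 7.17, 7.33 and 8.16 TPM in the libraries labelled KO, a log2 difference of 0.41 (limma adjusted p = 0.103). Retreg1, a receptor for the endoplasmic reticulum, was 97.2, 89.5 and 75.6 TPM in WT and 66.0, 70.04 and 69.7 TPM in the libraries labelled KO, with a log2 difference of −0.34 (limma adjusted p = 0.131). Neither pair of groups overlapped, and in both genes WT replicate 3 was the WT library closest to the libraries labelled KO. Without it both were called, Tecpr1 at 0.50 (limma adjusted p = 0.0175) and Retreg1 at −0.44 (limma adjusted p = 0.0144), and against it alone they were 0.24 and −0.14.
By group, the 10 regulators tested had a median log2 fold change of 0.09, the 12 further nucleation genes 0.04, the 14 fusion genes 0.07 and the 13 further receptors 0.01. Tfeb was 26.7, 22.8 and 36.2 TPM in WT and 30.6, 31.6 and 34.0 TPM in the libraries labelled KO (log2 fold change 0.18, limma adjusted p = 0.5004). Without WT replicate 3, the highest of all 6, Tfeb was called at 0.36 (limma adjusted p = 0.0387), and against that library alone it was −0.17. Tfe3 was 45.0, 46.8 and 37.6 TPM in WT and 48.7, 52.0 and 53.0 TPM in the libraries labelled KO (log2 fold change 0.25, limma adjusted p = 0.181), with 0.16 without WT replicate 3 and 0.43 against it alone. In Tfe3 the groups did not overlap, and WT replicate 3 was the farthest of the WT libraries from the libraries labelled KO.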

How the data were processed

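RNA of 6 neutrophil libraries, 3 labelled WT and 3 labelled KO, had been sequenced. The authors deposited TPM per gene. Per the methods, reads were aligned to mm9 and passed through a DESeq2 pipeline with default settings. The tool that gave TPM is not given in the sources used here, and TPM keeps no depth. A deposited summary gives read counts, percent of reads per annotation class, read and insert lengths, coverage bias as a ratio and a coverage variation score per library. It lists paired-end reads, whereas the methods name single-end ones.

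Groups followed the titles. Of 52636 genes listed, the 9775 whose mean reached 1 TPM were kept. The log2(TPM + 1) values were fitted in limma 3.58.1 (R 4.3.3), allowing the variance to follow the mean level, and p-values of all genes kept were adjusted together by the Benjamini-Hochberg procedure (threshold 0.05). Python 3.11.15 with pandas 2.3.3 gave summaries, and the fits were tested on simulated data. Read summary values were compared by exact permutation. GC content and length came from the longest coding transcript of GENCODE M1, for 89.7% of the genes tested and all 39 members. Promoters were RefSeq windows on GRCm38.p6.

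Members, lists and tests were chosen with earlier results of these data known. Full values were given for members with an unadjusted p under 0.05 or groups that did not overlap, for the most abundant of each step, for 3 other autophagy genes of smallest p, and for Lrp5 and Lyz2. Where other genes are given in full, they were chosen after their values were seen. Alternatives covered pseudocount, filter, scaling, variance model, single libraries left out, a replicate block, ribosomal RNA share, GC and length, and WT replicate 3 as the sole control.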

Additional observations from a re-analysis of the deposited data

How the results depend on the processing

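Without WT replicate 3, 11 members and 1920 of all genes had an adjusted p under 0.05 in limma. Leaving out each library in turn gave 0 to 11 members, 2 to 1920 of all genes and 0 to 8 other autophagy genes, where all libraries gave 0, 52 and 1. All-gene calls numbered 3 with no filter, 29 at a mean of at least 5 TPM, 96 after rescaling without mitochondrial and the 20 most abundant genes, 6 with ribosomal RNA share as a covariate, 430 with GC and length trends removed and 6 against WT replicate 3 alone. Removing those trends called 1 member and 2 other autophagy genes, while no filter, the ribosomal RNA share and WT replicate 3 alone each gave 0 of the latter. The members' median log2 fold change was −0.027 with the ribosomal RNA share and −0.047 against WT replicate 3 alone, and 0.031 to 0.13 with a library left out. For initiation it was −0.034, −0.060 with the GC trend removed and −0.078 against WT replicate 3 alone, and with a library left out −0.0030 (without WT replicate 1) to 0.13. For nucleation it was 0.050, 0.068 and −0.029, and 0.091 to 0.23. For conjugation it was −0.025 with the ribosomal RNA share and −0.0059 against WT replicate 3 alone, and −0.017 to 0.15. Median-ratio scaling put 22 of 39 members above 0 in place of 25. Of 19 named genes, 15 kept their direction in all alternatives. The sign turned for Atg14 at −0.041 with quantile normalization, for Atg101 at −0.034 with the ribosomal RNA share, −0.091 with GC trends removed, −0.078 against WT replicate 3 alone and −0.0030 without WT replicate 1, for Wipi1 at −0.018 with median-ratio scaling, −0.027 with the ribosomal RNA share, −0.029 with GC trends removed, −0.062 against WT replicate 3 alone and −0.025 to 0.069 with a library left out (below 0 without WT replicate 2 or KO replicate 1), and for Sqstm1 at −0.10 with the ribosomal RNA share, −0.20 against WT replicate 3 alone and −0.0010 (without WT replicate 1) to 0.25 with a library left out. The cause was not tested. No source ties equal replicate numbers, so the main fit did not pair them. Deviations of equal numbers correlated at 0.23, −0.0075 and 0.13. WT replicates 1 and 3 correlated best with their own number, and WT replicate 2 did not. With 3 libraries per group these values cannot settle whether equal numbers were prepared together. A replicate block gave 4 calls over all genes, 0 members and 0 other autophagy genes. TPM gives no depth per gene, so no limit for low genes can be set.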
